A study of Mus musculus with 5 samples.

Results

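Pro-B and early pre-B cells are the marrow cells in which the antibody heavy chain gene is assembled and first tested. They were taken here as droplet barcodes with at least 500 unique molecular identifiers (UMIs, each standing for 1 captured RNA molecule), at most 10% of UMIs from mitochondrial genes, at least 1 UMI of Ebf1, at least 5 UMIs of Dntt, Vpreb1 and Igll1 together, and fewer than 2 UMIs of Cdkn2a and Tmem119 together. This rule found 446 cells among 29679 barcodes that passed the UMI and mitochondrial limits, or 1.5% of them. The last condition kept out a group of B-lineage cells with Cdkn2a and Tmem119 RNA that was nearly confined to the day 3 library, where 112 cells that met the other conditions had 2 or more such UMIs.

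The cells came from the bone marrow of C57BL/6J mice aged 8 weeks, an immunocompetent, non-irradiated model of B-cell acute lymphoblastic leukemia (B-ALL). Each of 5 mice was given 1000 BCR-ABL1 pre-B ALL cells through the tail vein, and marrow was collected on day 0, right after the transplant, and on days 3, 6, 9 and 12, with 1 mouse per day. The day 0 mouse thus carried the same graft as the other mice, and there was no mouse without a graft. Marrow plugs and enzyme-digested long bones were pooled, red cells were lysed, and the cells were frozen before 10x Genomics 3' v2 libraries were made. Since each day is 1 mouse, no comparison between days has a replicate, no p-value is given, and the 95% intervals below (exact Poisson for levels, exact Clopper-Pearson for shares) cover counting error only. Transplanted leukemia cells are themselves pre-B cells, and no row of the count tables marks them, so host and transplanted cells cannot be told apart in these data.

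As background, B-cell progenitors commit to the lineage under the transcription factors E2A (encoded by Tcf3), Ebf1 and Pax5. In pro-B cells the Rag1 and Rag2 proteins cut the heavy chain locus, and terminal deoxynucleotidyl transferase, encoded by Dntt, adds bases at the joints. A heavy chain that folds pairs with the surrogate light chain, made of the Vpreb and Igll1 proteins, and with the signalling subunits Cd79a and Cd79b to form the pre-B cell receptor (pre-BCR). The receptor and interleukin-7 drive a burst of division, after which the surrogate light chain is shut off and the light chain loci are rearranged.

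The 3 genes that chose the cells lie at 2 places in the mouse genome (GRCm38, GENCODE vM21 annotation). Vpreb1 (ENSMUSG00000059305, chr16:16868403-16870843, minus strand) and Igll1 (ENSMUSG00000075370, chr16:16860671-16863985, minus strand) are neighbours with 4417 bases between them, and Dntt (ENSMUSG00000025014, chr19:41029275-41059525, plus strand) is on another chromosome. Their promoters are shown because these genes chose the cells. Each window runs from 250 bases before to 50 bases after the RefSeq start of the gene on build GRCm38.p6, 5′ to 3′ on the strand of the gene (chr16:16869206-16869505 for Vpreb1, chr16:16863936-16864235 for Igll1 and chr19:41029025-41029324 for Dntt). Capitals mark matches on either strand to the E-box CAGGTG, which E2A can bind, or to CCCNNGGG, the core of the Ebf1 motif (the whole motif has a T before and an A after this core).
Vpreb1: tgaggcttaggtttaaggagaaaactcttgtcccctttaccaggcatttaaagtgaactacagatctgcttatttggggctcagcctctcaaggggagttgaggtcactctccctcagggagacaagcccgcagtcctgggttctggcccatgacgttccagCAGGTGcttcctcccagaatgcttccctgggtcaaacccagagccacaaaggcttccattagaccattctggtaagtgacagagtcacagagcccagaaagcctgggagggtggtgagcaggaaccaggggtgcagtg
Igll1: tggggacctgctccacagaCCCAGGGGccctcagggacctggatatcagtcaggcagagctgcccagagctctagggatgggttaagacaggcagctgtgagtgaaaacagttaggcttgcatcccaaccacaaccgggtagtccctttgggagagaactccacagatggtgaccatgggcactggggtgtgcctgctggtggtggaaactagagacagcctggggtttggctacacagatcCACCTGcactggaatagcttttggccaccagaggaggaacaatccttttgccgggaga
Dntt: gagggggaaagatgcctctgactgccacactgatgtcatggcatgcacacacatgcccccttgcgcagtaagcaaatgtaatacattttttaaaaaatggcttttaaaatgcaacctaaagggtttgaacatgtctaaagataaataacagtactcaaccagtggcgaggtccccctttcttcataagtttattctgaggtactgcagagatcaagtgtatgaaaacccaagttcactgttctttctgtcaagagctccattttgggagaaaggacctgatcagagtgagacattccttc
The RefSeq start of Vpreb1 lies inside the longer GENCODE gene, and so does its window. The Vpreb1 window held the E-box once, starting 88 bases before the RefSeq start. The Igll1 window held the E-box 8 bases before the start, in the reverse orientation, and CCCAGGGG, a match to the Ebf1 core, 231 bases before it. The Dntt window held neither set of letters, and none of the 3 windows held the whole Ebf1 motif. Among 32851 RefSeq promoter windows of the same length, 20.2% held the E-box, 13.7% the core and 0.904% the whole motif, so these matches are a description of the letters only.

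The 5 libraries held between 33425695 and 43554233 UMIs and between 4870 and 6944 passing barcodes each. Pro-B and early pre-B cells had a median of 3305.5 UMIs on day 0 and medians of 6472.5 to 8808 UMIs on the later days, so that day 0 cells were the shallowest. No member barcode was shared between 2 libraries' members, and 13 of the 446 also passed the limits in another library. Neutrophils, which are the main cell of the marrow, were 55.5% of passing barcodes on day 0 and 91.1% on day 12. Because shares add up to the whole, fewer B-cell progenitors and more neutrophils cannot be told apart in them.

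The values that chose the cells are a description and support nothing. The summed UMIs of Dntt, Vpreb1 and Igll1 had medians of 26.5, 30.5, 31.5, 26.0 and 31.0 per cell on days 0, 3, 6, 9 and 12, with a highest value of 112. Just inside the limit lay 10 cells with a sum of 5, and just outside it 12 cells with a sum of 4 that met the other conditions. A further 60 cells reached the sum without an Ebf1 UMI, and 10 members held a single Ebf1 UMI. On the Cdkn2a and Tmem119 limit, 21 members held 1 such UMI, 9 of them on day 3.

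Of the early markers that the rule did not use, some were higher in the members than in 2 other classes of B-lineage cells and some lower. Lef1, a transcription factor of immature lymphocytes, had between 1.36 and 3.46 UMIs per 10000 in these cells, against at most 0.47 in Rag-positive B-lineage cells below the limit and at most 0.14 in Ighd-positive B cells. Arpp21, a gene that marks pro-B and pre-B cells, had between 0.179 and 0.481 UMIs per 10000 in these cells and at most 0.26 and 0.07 in the other 2 classes, so its range overlapped that of the Rag-positive cells. Ly6d and Il7r, also early genes, were lower in the members than in Rag-positive cells on every day. The 2 comparison classes were 322 cells with Ebf1 and Rag1 or Rag2 UMIs but fewer than 5 surrogate light chain and Dntt UMIs and no Ighd, and 1455 cells with Ebf1 and Ighd, which is made by mature B cells. These classes were shallower, with median UMIs of 1982 and 1735 against 5423 in the members. A limit on raw UMIs leaves shallow cells below it more easily, and the part of depth in the differences was not tested. Cd79a was found in 90.0 to 98.9% of the members and Pax5 in 36.7 to 58.9%. The stem and progenitor genes Kit, Flt3 and Cd34 had at most 0.138, 0.211 and 0.144 UMIs per 10000.

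Markers of other cells were low except for those of neutrophils. All 7 neutrophil markers (S100a8, S100a9, Ngp, Camp, Ltf, Lcn2 and Retnlg) were detected on every day, with a summed level of 352.7, 286.0, 273.6, 205.7 and 622.9 UMIs per 10000 on days 0, 3, 6, 9 and 12. S100a8 and S100a9 together took a median of 1.16 to 1.41% of the UMIs of a member, but 10% or more in 7, 4, 1, 2 and 6 members of the 5 days. The day 12 level was the highest, and calls without the cells at 10% or more are given beside the day comparison. The 5 T-cell markers summed to at most 0.345 UMIs per 10000, the 4 mature B-cell markers to at most 0.627, the 3 plasma cell markers to at most 0.424, the 3 natural killer cell markers to at most 0.211, and the 3 markers of plasmacytoid dendritic cells to at most 0.553. The 4 monocyte markers summed to between 1.29 and 3.90, the 4 erythroid markers to between 0.0345 and 1.37, the 4 progenitor markers to between 0.640 and 1.09, and the 4 markers of stroma and endothelium to at most 0.0769, with Cdh5 at 0 on every day. By the scores of Scrublet, a doublet caller, 7, 0, 2, 2 and 0 members counted as doublets. The score limit was fixed at 0.25 for every library.

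The share of pro-B and early pre-B cells was lowest on day 12. They were 124 of 6259 passing barcodes on day 0 (1.98%, interval 1.65 to 2.36%), 66 of 4870 on day 3 (1.36%, 1.05 to 1.72%) and 90 of 6041 on day 6 (1.49%, 1.2 to 1.83%). The day 9 library held 136 of 6944 (1.96%, 1.65 to 2.31%) and the day 12 library 30 of 5565 (0.539%, 0.364 to 0.769%). The interval of day 12 overlapped none of the others, while the first 4 days spanned less than 1.5-fold. The other B-lineage classes were at their lowest on day 12 too: Rag-positive cells were 1.10, 1.11, 1.69, 1.22 and 0.216% of barcodes, and Ighd-positive B cells 7.88, 3.16, 7.33, 4.35 and 1.13%. With every barcode thinned to 1000 UMIs and a limit of 2 UMIs, the shares of members were 1.64, 1.68, 1.02, 1.43 and 0.375%, so day 12 remained lowest but the order of the first 4 days did not hold.

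**Figure D1:**
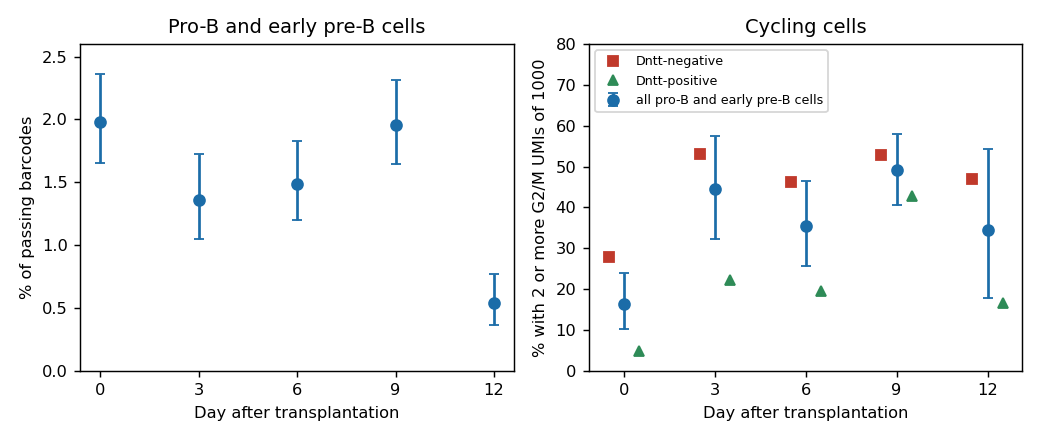
Left, pro-B and early pre-B cells as a percentage of passing barcodes in the 1 mouse of each day, with exact 95% binomial intervals. Right, the percentage of them with 2 or more UMIs of 18 G2/M genes among 1000 UMIs (circles, with the same kind of interval), and the same share among their Dntt-positive cells (triangles) and Dntt-negative cells (squares). The day 12 share of 0.539% lay below the intervals of the other days, and the day 0 cycling share of 16.3% was the lowest of the 5.

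Surrogate light chain RNA was found in nearly every member, as the rule favoured. Vpreb1 had 21.1, 14.3, 16.2, 16.4 and 14.8 UMIs per 10000 on days 0, 3, 6, 9 and 12, and was seen in 93.3 to 98.9% of the members of a day. Igll1 had 18.6, 12.0, 13.3, 13.3 and 12.9 UMIs per 10000. Both are genes of the rule, whose limit of 5 UMIs weighs more in the shallow cells of day 0, so no difference between days is read from them. In neutrophils, which do not make it, Vpreb1 had between 0.02 and 0.13 UMIs per 10000, a measure of the background.

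The 3 genes of the rule were also counted cell by cell. Of the 446 members, 431 (96.6%) held UMIs of both Vpreb1 and Igll1, 4 held Vpreb1 only, 0 held Igll1 only and 11 held neither. The levels of the 2 genes had a Spearman correlation of 0.853 over the 446 cells, and those of Dntt correlated with Vpreb1 at 0.572 and with Igll1 at 0.560. The cells share their libraries and were chosen by these genes. Dntt was found in 260 of the 435 cells with Vpreb1, and 11 cells qualified on Dntt alone. Dntt had 4.21, 3.84, 3.30, 4.53 and 5.03 UMIs per 10000 on the 5 days and was seen in 66.9, 56.1, 55.6, 59.6 and 66.7% of the members.

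Vpreb2 and Vpreb3, relatives of Vpreb1 that the rule did not use, were also present. Vpreb2 had 2.65, 2.13, 1.47, 1.55 and 3.24 UMIs per 10000, and no member held it without Vpreb1. None was found in Rag-positive cells below the limit, but these were chosen for a low sum that includes Vpreb1. That absence is therefore no separate mark of the members. The Vpreb1 and Vpreb2 transcripts shared 740 of 759 aligned bases (97.5%) and 186 of 193 bases after the stop codon, where 3' reads fall, so the split of UMIs between these 2 genes is uncertain. Vpreb3, which binds newly made heavy chains inside the cell, had 25.1, 17.4, 24.5, 24.0 and 16.1 UMIs per 10000. Its level was no mark of the members, since Rag-positive cells had 25.96 to 33.28 and Ighd-positive B cells 1.62 to 9.34.

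The heavy chain and the signalling subunits were below their levels in Rag-positive cells. Ighm, the mu heavy chain constant region (ENSMUSG00000076617, chr12:113418558-113422730), had 11.2, 9.29, 12.8, 11.0 and 8.96 UMIs per 10000 in the members and 25.48 to 42.93 in Rag-positive cells. Cd79b had 6.07, 4.19, 5.25, 4.5 and 3.31 UMIs per 10000 against 11.53 to 15.20 in Rag-positive cells, and Syk, the kinase that reads the receptor, 0.276 to 0.751 against 2.48 to 3.30. In each of these genes every day of the members lay below every day of the Rag-positive cells. Cd79a had 14.2, 10.8, 11.5, 11.8 and 9.17 UMIs per 10000 against 14.24 to 20.44, so it differed less. Blnk, the adaptor downstream of Syk, had 2.40, 2.20, 2.14, 2.37 and 1.45 UMIs per 10000. The other kinases and effectors of the list, Btk, Lyn, Blk, Fyn and Plcg2, had between 0.194 and 0.642.

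Kappa light chain RNA was far below that of Rag-positive cells and Ighd-positive B cells. Igkc, the kappa constant region (ENSMUSG00000076609, chr6:70726435-70726966), had 3.06, 2.43, 5.65, 4.21 and 1.31 UMIs per 10000 in the members, against 28.03 to 112.5 in Rag-positive cells and 60.05 to 106 in Ighd-positive B cells. Neutrophils, which do not make it, had 0.55, 0.64, 3.87, 3.63 and 0.27 and were thus also highest on days 6 and 9. The part of free RNA in the higher Igkc of the members on these days was not tested. Iglc1, Iglc2 and Iglc3, the lambda constant regions, had at most 0.304 UMIs per 10000.

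Recombination genes other than Dntt were at low levels. Rag1 (ENSMUSG00000061311, chr2:101638282-101649501) had 0.884, 0.474, 0.751, 0.617 and 0.586 UMIs per 10000, was seen in 28.8 to 40.3% of the members, and had 2.73 to 4.82 in Rag-positive cells, which were chosen by it. Rag2 had 0.381, 0.231, 0.326, 0.287 and 0.207 UMIs per 10000. Of the 446 members, 129 held Rag1 and Dntt, 21 Rag1 only, 142 Dntt only and 154 neither. Xrcc6, which encodes the Ku70 end-binding protein, had 3.13 UMIs per 10000 on day 0 (2.76 to 3.54) and 1.28, 1.44, 1.33 and 1.24 on the later days, with no overlap of the day 0 interval with any later one. Lig4, the ligase of the same repair pathway, had 0.109 to 0.270, and Prkdc and Dclre1c, the end-processing kinase and nuclease, at most 0.0769.

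Among 20 B-lineage transcription factors, Ebf1 was the highest, as the rule required at least 1 UMI of it, with 23.4, 18.1, 19.3, 18.7 and 15.6 UMIs per 10000. Rag-positive cells, which also had to hold it, had 24.26 to 37.21. Pax5 had 1.09, 0.820, 1.21, 1.09 and 0.758 and Tcf3 2.1, 1.88, 2.13, 2.09 and 1.90 UMIs per 10000, so Tcf3 was nearly level over the days. Lef1 had 3.46 UMIs per 10000 on day 0 (3.07 to 3.89) and 1.36, 1.62, 1.62 and 1.62 later, and Id3, an inhibitor of E proteins, 4.08 on day 0 (3.65 to 4.54) and 1.77, 2.27, 2.37 and 2.34 later. For both genes the day 0 interval lay above every later one. Erg, which acts at the start of the pro-B stage, had 0.239 to 0.528 UMIs per 10000 against at most 0.05 in Rag-positive cells. Bach2 and Spib had 0.474 to 1.21 and 0.333 to 0.553, against 3.50 to 5.28 and 2.44 to 3.20 in Rag-positive cells. Sox4, Myb, Ikzf1 and Pou2af1 lay between 1.03 and 2.24 UMIs per 10000, and Irf4, Foxo1 and Tcf12 between 0.276 and 0.700.

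Il7r and Ly6d, of the early list, were lower in the members than in Rag-positive cells. Il7r, the interleukin-7 receptor, had 0.970, 0.909, 1.07, 1.27 and 0.896 UMIs per 10000 in the members, 1.42 to 2.94 in Rag-positive cells and 0.07 to 0.48 in Ighd-positive B cells. Ly6d, a surface protein gained on entry into the lineage, had 1.47, 0.448, 0.958, 0.769 and 1.0 UMIs per 10000, against 9.86 to 53.37 in Rag-positive cells and 15.73 to 19.01 in Ighd-positive B cells. Cd24a, the heat-stable antigen, was high, at 11.7 to 14.8. Genes of the small pre-B and mature stages were low. The small pre-B genes Il2ra and Cd2 had at most 0.0169 and 0.172 UMIs per 10000, against 0.50 to 0.73 and 1.24 to 2.91 in Rag-positive cells. Of the mature B-cell genes, Ighd had at most 0.194, Ms4a1 at most 0.120, and Cd74, the class II invariant chain, 0.512 to 1.05 against 72.5 to 132 in Ighd-positive B cells.

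**Figure D2:**
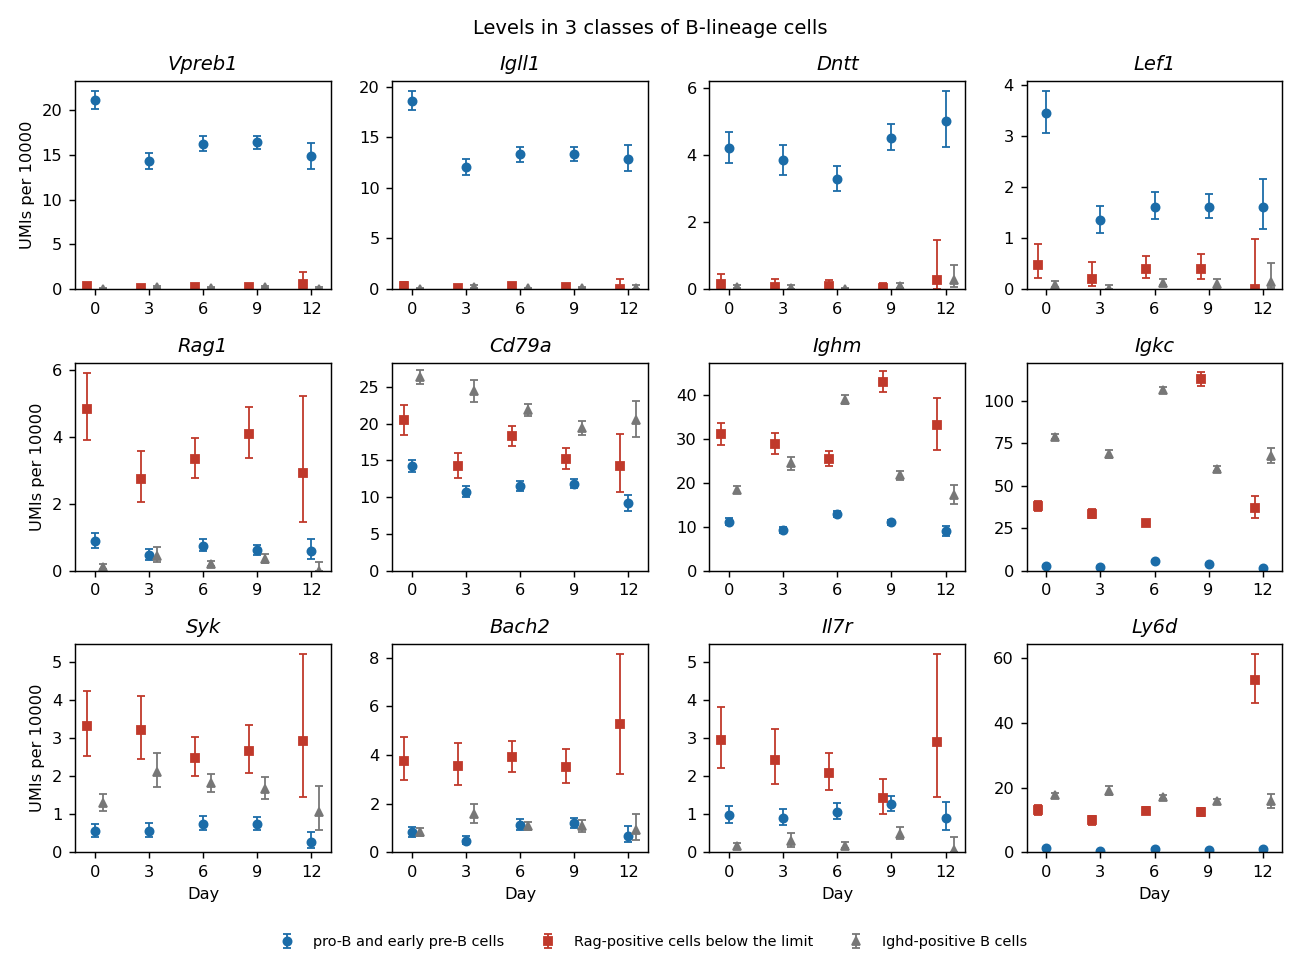
UMIs per 10000 UMIs of the class (vertical axes, linear, from 0) on each day (horizontal axes) for 12 genes in pro-B and early pre-B cells (circles), Rag-positive B-lineage cells below the limit (squares) and Ighd-positive B cells (triangles), 1 mouse per day, with exact 95% Poisson intervals. Vpreb1, Igll1 and Dntt chose the circles and Rag1 the squares. Lef1 was higher in the circles than in both other classes on every day, while Ighm, Igkc, Syk and Ly6d were lower in them than in the squares.

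Interleukin-7 and survival genes differed little from day to day in sum. The 17 genes of this list summed to 12.2, 11.8, 11.2, 11.9 and 11.9 UMIs per 10000. Ccnd3, the D-type cyclin of dividing pre-B cells, had 3.07, 5.71, 4.42, 4.31 and 2.52, highest on day 3, while Ccnd2 had 1.78, 1.09, 1.26, 1.16 and 2.62, highest on day 12. Socs2, a target of STAT5, had 1.09, 0.525, 0.359, 0.709 and 0.793 UMIs per 10000 against at most 0.26 in Rag-positive cells, and Pim1, another STAT5 target, had 1.25, 0.487, 0.979, 1.06 and 1.45. Myc had 0.283 to 0.414 and Bcl2 0.0979 to 0.207. Of the niche genes, Cxcr4, the receptor that holds progenitors near stroma, had 0.958, 0.5, 0.675, 0.752 and 0.379 UMIs per 10000, and Itga4, an integrin subunit, 1.14, 0.666, 1.05, 0.735 and 0.758. The 10 interferon genes summed to between 3.82 and 4.92 UMIs per 10000, led by Ifitm3 (1.77, 2.27, 3.21, 2.48 and 2.31), which had 15.8 to 19.1 in neutrophils.

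Part of the members, called cycling here, held RNA of genes of the G2 and M phases. With each cell thinned to 1000 UMIs, 20 of 123 members on day 0 held 2 or more UMIs of 18 G2/M genes (16.3%, interval 10.2 to 24.0%). The shares were 29 of 65 on day 3 (44.6%, 32.3 to 57.5%), 32 of 90 on day 6 (35.6%, 25.7 to 46.4%), 67 of 136 on day 9 (49.3%, 40.6 to 58.0%) and 10 of 29 on day 12 (34.5%, 17.9 to 54.3%). Day 0 was the lowest, and its interval overlapped that of day 12 alone. Cycling members were deeper, with median UMIs of 9511 to 14778 over the days against 2959 to 4810 in the others. Without thinning the shares were 30.7, 65.2, 67.8, 69.9 and 56.7%. The summed level of the 17 S-phase genes was 25.5, 26.0, 30.4, 27.6 and 27.3 UMIs per 10000 and that of the G2/M genes 17.5, 30.2, 27.3, 31.1 and 26.5. In these sums, where deep cells weigh more, the days differed in the latter more than in the former. With each cell thinned to 1000 UMIs, the S-phase level was 13.9, 20.9, 25.2, 20.9 and 19.3 UMIs per 10000. The thinned G2/M level was 10.1, 22.3, 19.9, 24.6 and 16.2, so day 0 was the lowest in both lists.

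The cycling share was lower in cells with Dntt RNA than in cells without it, with intervals apart on day 0 alone. After thinning, Dntt-positive cells were 62 of 123, 18 of 65, 36 of 90, 49 of 136 and 12 of 29 members on the 5 days. Cycling cells were 3, 4, 7, 21 and 2 of these (4.84, 22.2, 19.4, 42.9 and 16.7%), and 17 of 61, 25 of 47, 25 of 54, 46 of 87 and 8 of 17 of the Dntt-negative cells (27.9, 53.2, 46.3, 52.9 and 47.1%). The share was lower among Dntt-positive cells in each of the 5 mice, by the smallest margin on day 9. The intervals of the 2 groups were apart on day 0 (1.01 to 13.5% against 17.15 to 40.83%) and overlapped on days 3, 6, 9 and 12. Dntt-positive cells were also shallower, with median UMIs of 2864 to 4688 against 6555 to 12668, and the part of depth in the difference was not tested. A cell that holds Dntt RNA but shows none among 1000 UMIs counts as negative here.

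Dntt-positive and Dntt-negative members of the same mouse were then set side by side, in levels of UMIs per 10000, for genes other than those of the rule. Since Dntt is a gene of the rule, this describes how the members vary and tests nothing. With each cell thinned to 1000 UMIs, days 0, 6 and 9 had 20 or more cells on each side and 853 genes with enough UMIs. Of these, 33 (3.87%) were higher in Dntt-positive cells on all 3 days with a median ratio of 2-fold or more, and 38 (4.45%) were lower in the same way. Rag1 was among the former, with 2.90, 2.78 and 1.84 in Dntt-positive and 0.98, 0.56 and 1.15 UMIs per 10000 in Dntt-negative cells, as were Selm (5.25-fold by the median), Ube2b (3.20-fold), Ogt (3.00-fold), Napsa (2.84-fold), Ptgr1 (2.71-fold), Vpreb2 (2.71-fold), Gmfg (2.65-fold), Akap13 (2.62-fold) and Sepp1 (2.49-fold). Lower in Dntt-positive cells were Nme1, a nucleotide kinase of growing cells (4.44-fold by the median), the mitochondrial chaperone Hspd1 (3.76-fold), 2700094K13Rik (3.67-fold), the tubulin Tuba1b (3.64-fold), Cks1b (3.33-fold), Gngt2 (3.05-fold), Tipin (3.00-fold), 2810417H13Rik (2.97-fold), Cdk4 (2.88-fold) and the glycolytic enzyme Ldha (2.85-fold). Many of these folds rest on few thinned UMIs. On days 0, 6 and 9, Dntt-negative cells held 3, 5 and 5 UMIs of Selm and 6, 3 and 10 of Rag1. Dntt-positive cells held 2, 1 and 0 of Hspd1, which were set to 3. Gmfg rested on more, with 115, 71 and 91 UMIs in Dntt-positive and 70, 39 and 61 in Dntt-negative cells. Tuba1b, Cks1b, Tipin and Cdk4 take part in division, and 4 of 5 S-phase genes compared were lower on all 3 days with a median of 2-fold or more, and the median log2 ratio of the list was -1.16, against -0.06 over all 853 genes. With 2 or more Dntt UMIs against 0, 20 of 581 genes (3.44%) were higher and 39 (6.71%) lower on all days used. Among members with under 2 G2/M UMIs alone, with all UMIs used on days 0 and 9, 657 of 3837 genes (17.1%) were higher and 508 (13.2%) lower.

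Use of all UMIs brought more genes into view and split the members into 83 and 41, 37 and 29, 50 and 40, and 81 and 55 Dntt-positive and Dntt-negative cells on days 0, 3, 6 and 9. Of 4666 genes compared, 419 (8.98%) were higher on all 4 days with a median of 2-fold or more and 209 (4.48%) lower, with a median log2 ratio of 0.04 over all genes. All 3 recombination genes compared were 2-fold or more higher, with a median log2 ratio of 2.25. Other lists lay above 8.98% as well: 5 of 14 immediate early, 2 of 4 interferon and 3 of 8 p53 and CDK inhibitor genes were higher, with 0 lower. Of the early genes 3 of 8 were higher and 1 lower, and of the interleukin-7 and survival genes 3 of 11 and 1. The late pre-B and niche lists had 0 of 3 and 0 of 6. Rag1 had 1.67, 1.18, 1.93 and 1.17 UMIs per 10000 in Dntt-positive cells against 0.264, 0.0210, 0.117 and 0.128 in Dntt-negative ones. Arpp21 had 0.920, 0.427, 1.18 and 0.969 against at most 0.0659, and Xrcc6 5.07, 2.37, 2.64 and 2.23 against 1.60, 0.588, 0.787 and 0.543. The 2 sides did not overlap over the 4 mice for Rag1, Arpp21 or Xrcc6.

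The pre-BCR genes and transcription factors were not uniform over this split. Vpreb3 had 35.8, 26.4, 39.9 and 33.9 UMIs per 10000 in Dntt-positive cells and 16.7, 11.7, 16.3 and 15.3 in Dntt-negative ones, and Blnk 3.79, 3.98, 4.17 and 3.86 against 1.30, 1.07, 1.05 and 1.04. Cd79a had 19.0, 14.3, 16.5 and 16.3 against 10.4, 8.46, 8.84 and 7.87. Ighm was near even, with 10.7, 7.46, 12.2 and 9.87 against 11.5, 10.5, 13.2 and 12.0. Of 13 pre-BCR and BCR genes compared, 3 were 2-fold or more higher in Dntt-positive cells on all 4 days and 0 lower, with a median log2 ratio of 0.46, and of 17 transcription factors 4 were higher and 1 lower, with a median of 0.41. Lef1 had 5.38, 1.78, 2.92 and 2.53 against 1.96, 1.09, 0.921 and 0.814, and Foxo1, which switches on the Rag genes, 1.17, 0.625, 1.09 and 0.574 against 0.329, 0.210, 0.285 and 0.255. Bst1, a surface enzyme of early B-cell progenitors, had 1.31, 0.855, 0.715 and 0.861 against 0.0879, 0.273, 0.117 and 0.176.

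Dntt-negative cells had more RNA of another set of genes. Nrgn, a calmodulin-binding protein, had 1.58, 1.68, 2.70 and 2.57 UMIs per 10000 there against 0.167, 0.0986, 0.124 and 0.251 in Dntt-positive cells, and Myl4, a myosin light chain, 3.4, 4.07, 4.37 and 5.89 against 0.139, 0.230, 0.871 and 0.682. Fcrla, an Fc receptor-like protein of B cells, had 1.12, 1.09, 1.34 and 1.45 against 0.251, 0.230, 0.249 and 0.287. Cd24a had 17.3, 16.6, 17.8 and 18.0 against 9.09, 5.46, 9.21 and 8.13, and Igkc 4.35, 3.27, 6.70 and 5.73 against 1.42, 1.12, 3.70 and 2.49. Each of these 5 genes was higher in Dntt-negative cells in all 4 mice with no overlap, except Igkc, where the Dntt-positive cells of day 6 exceeded the Dntt-negative cells of day 3. Of the 17 S-phase genes, 16 were lower in Dntt-positive cells on all 4 days and 9 of them by 2-fold or more, whereas 0 of 18 G2/M genes passed 2-fold in either direction, with medians of -1.0 and -0.24.

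**Figure D3:**
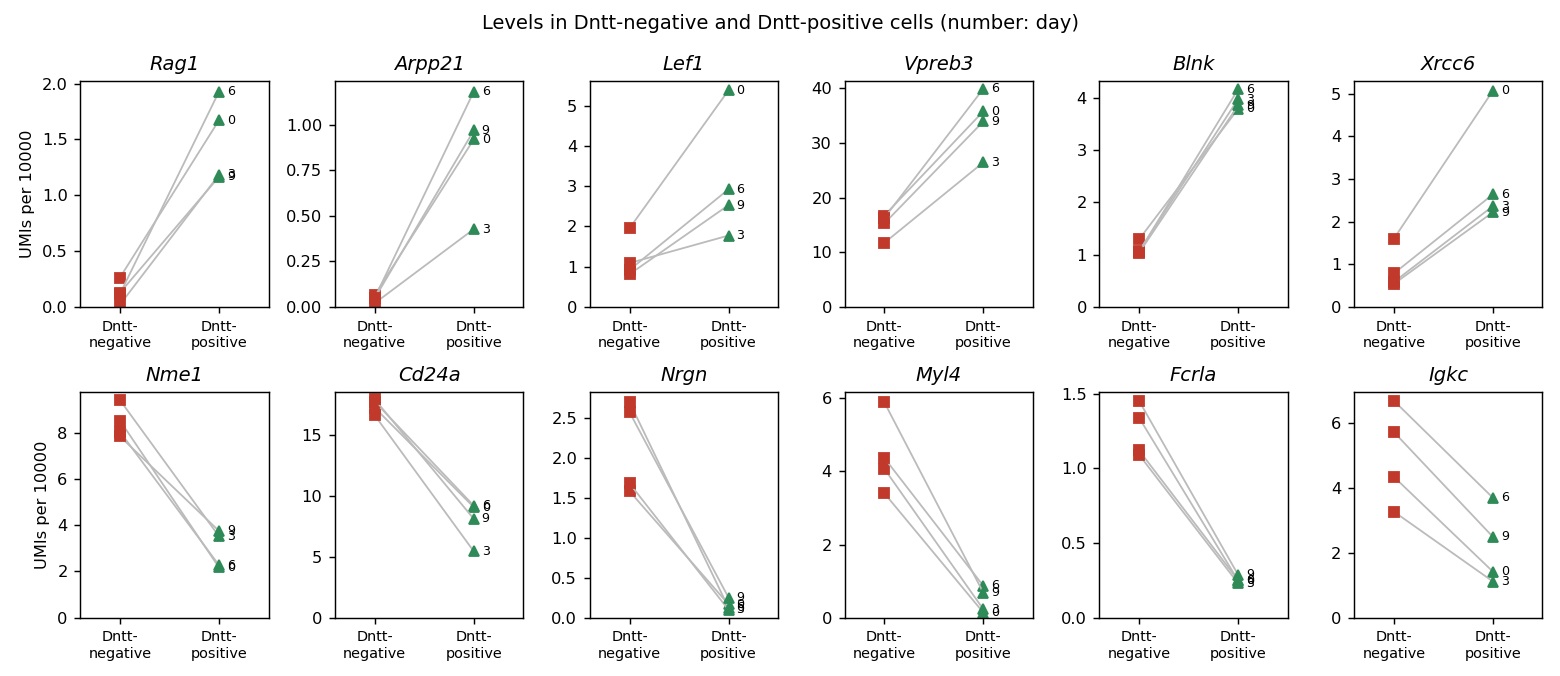
UMIs per 10000 (vertical axes, linear, from 0) of 12 genes in Dntt-negative (squares) and Dntt-positive (triangles) pro-B and early pre-B cells, with all UMIs used. A line joins the 2 values of 1 mouse and the number beside it is the day, with day 12 left out for having 10 Dntt-negative cells. Rag1, Arpp21, Lef1, Vpreb3, Blnk and Xrcc6 were higher in the Dntt-positive cells of each mouse, and Nme1, Cd24a, Nrgn, Myl4, Fcrla and Igkc lower.

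The study followed the marrow over time, so each later day was set against day 0 over all genes. These 4 comparisons share the day 0 library and are not independent of each other. The log2 ratio is that of summed levels, and called means 2-fold or more. On day 3, 42 of 4003 genes were called higher (1.05%) and 187 lower (4.67%), and on day 6, 59 of 4234 higher (1.39%) and 112 lower (2.65%). On day 9, 52 of 4161 genes were called higher (1.25%) and 131 lower (3.15%), and on day 12, with 30 cells, 21 of 1751 higher (1.2%) and 42 lower (2.4%). The median log2 ratios of all genes were -0.11, -0.03, -0.09 and 0.00. With trimmed-mean scaling by edgeR the day 3 calls were 61 higher and 143 lower, and the day 9 calls 72 higher and 102 lower. The larger number of lower calls did not hold on every day under other settings. With each cell thinned to 1000 UMIs, 18 genes were higher and 14 lower on day 3, 17 and 18 on day 6, 30 and 29 on day 9 and 9 and 5 on day 12, and with each cell given equal weight 202 were higher and 196 lower on day 6. Without the members with 10% or more S100a8 and S100a9 UMIs, an alternative chosen after seeing the data that left 24 cells on day 12, 8 of 1572 genes were higher and 41 lower on day 12.

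Immediate early genes, which are switched on within minutes of a stimulus, were lower on every later day. On days 3, 6, 9 and 12, 14 of 15, 13 of 15, 12 of 15 and 2 of 12 compared were lower by 2-fold or more, and the medians were -1.70, -1.2, -1.36 and -0.82. Fos, a subunit of AP-1, had 5.77 UMIs per 10000 on day 0 and 1.45, 1.88, 1.59 and 3.27 later, and its partner Jun 5.81 and then 2.19, 1.92, 1.86 and 2.55. Jund had 9.18 and then 2.82, 3.97, 4.17 and 4.38, and Klf2, a quiescence factor, 2.83 and then 0.666, 0.968, 0.997 and 1.79. Every compared gene of the list was below day 0 on each later day, and the summed level of the 16 genes was 42.6, 13.3, 17.5, 16.7 and 23.5. In the Dntt split with all UMIs, 9 of 14 of these genes were higher in Dntt-positive members on all 4 days and 0 lower. Dntt-positive cells were 50.4% of the thinned members on day 0 and 27.7 to 41.4% later. The part of this mix in the difference from day 0 was not tested.

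The same list was lower after day 0 in the other cells of the same mice as well. In neutrophils 16 of 16 genes were below day 0 on each later day, with medians of -0.68, -0.72, -0.85 and -0.37. In Ighd-positive B cells 13 of 13, 16 of 16, 16 of 16 and 12 of 13 genes were below it, with medians of -1.05, -0.80, -0.94 and -0.38, and in Rag-positive cells 13 of 13, 12 of 12, 13 of 13 and 4 of 4. In T cells 12 of 13, 13 of 15, 16 of 16 and 6 of 14 were below it, with a median of 0.08 on day 12. The list was thus highest on day 0 in all 5 classes, apart from day 12 in T cells. The 1 mouse of day 0, its handling and its day cannot be told apart.

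G2/M genes were higher after day 0. On days 3, 6 and 9, 5, 3 and 7 of 18 were called higher than on day 0, and 1 of 11 on day 12, with medians of 0.83, 0.68, 0.87 and 0.44. Ube2c, a ubiquitin ligase of mitosis, had 2.0 UMIs per 10000 on day 0 and 4.97, 3.79, 4.0 and 4.14 later, Mki67 0.946 and then 1.61, 1.73, 2.05 and 1.24, and Top2a, a topoisomerase, 2.32 and then 3.46, 3.65, 4.29 and 3.65. All 18 genes lay above day 0 on days 3 and 6, 17 on day 9 and all 11 compared on day 12. The S-phase genes had medians of -0.02, 0.23, 0.06 and 0.04, and 16 of 17 lay above day 0 on day 6, with 1 called higher on day 9 (Rrm1) and 1 lower (Ung). Other cells of the same mice shared this in part. In Ighd-positive B cells 8 of 8, 15 of 15 and 9 of 11 G2/M genes were called higher on days 3, 6 and 9, with medians of 2.06, 1.41 and 1.44, and in T cells 2 of 5, 2 of 6, 6 of 8 and 3 of 4 on days 3, 6, 9 and 12. In Rag-positive cells 0 of 11, 0 of 11 and 0 of 10 were called higher on days 3, 6 and 9, and the medians in neutrophils were 0.08, 0.07, 0.02 and 0.08.

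**Figure D4:**
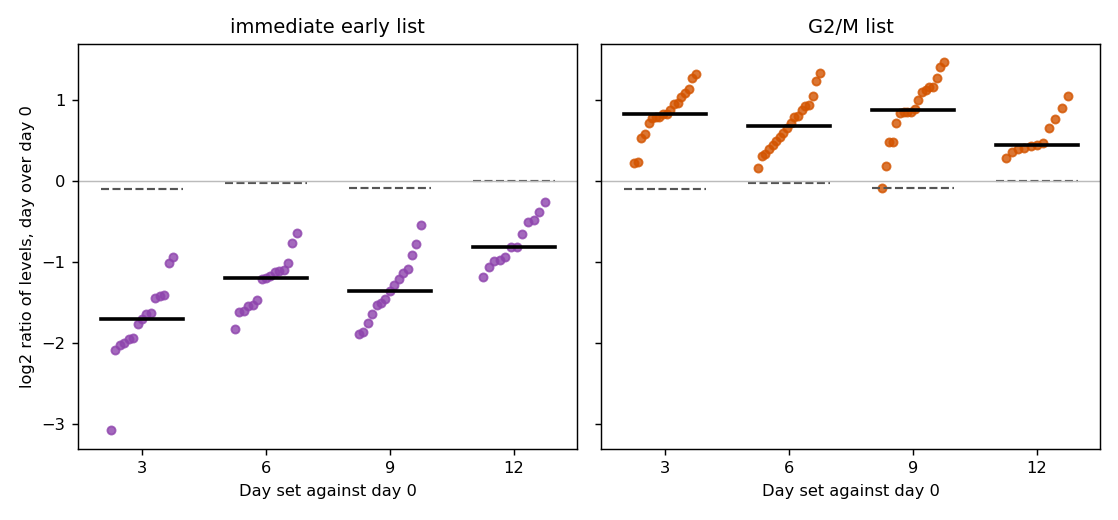
Log2 ratio of the level on each later day to that on day 0 (vertical axis) for the genes of the immediate early list (left) and the G2/M list (right) that were compared, in pro-B and early pre-B cells, 1 mouse per day. Points are genes sorted by value, solid bars their median and dashed bars the median of all genes compared. All immediate early genes lay below 0, and all G2/M genes above it except Aurkb on day 9.

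The genes called in the lineage lists were all lower than on day 0. Over all genes compared, 4.67, 2.65, 3.15 and 2.4% were called lower on days 3, 6, 9 and 12. On day 3 the shares of the transcription factors (2 of 17), early genes (2 of 8) and interleukin-7 and survival genes (2 of 9) lay above the 4.67% of all genes. So did those of the recombination (1 of 3), mature B-cell (1 of 4) and p53 and CDK inhibitor genes (1 of 7). Each of these shares rests on 1 or 2 genes, so nothing is read from them. A list of 13 genes with 0 called cannot be told apart from the shares of all genes either. Of 13 pre-BCR and BCR genes compared on days 3, 6 and 9 and 7 on day 12, 0 were called in either direction on any day, with medians of -0.27, -0.03, -0.06 and -0.64. Of 17, 17, 17 and 12 transcription factors, 0 were called higher and 2, 2, 1 and 1 lower: Lef1 on each day, at -1.35, -1.09, -1.09 and -1.10, Id3 on day 3 at -1.21 and Erg on day 6 at -1.14. Of 3, 3, 4 and 2 recombination genes, 0 were called higher and 1 lower on each day, which was Xrcc6. Of 8, 8, 8 and 3 early genes, 0 were called higher and 2, 1, 1 and 0 lower, among them Ly6d at -1.72 and Arpp21 at -1.30 on day 3 and Lax1, an adaptor, at -1.37 and -1.73 on days 6 and 9. Of the interleukin-7 and survival genes 0 were called higher, and Pim1 at -1.36 and Socs2 at -1.06 on day 3 and Socs2 at -1.61 on day 6 were called lower. Igkc was called lower on day 12, at -1.22. Of the mature B-cell genes Ltb, a lymphotoxin subunit, was called lower on days 3 and 9, at -1.62 and -1.01, and of the p53 and CDK inhibitor genes Cdkn1b on day 3, at -1.19. The late pre-B, niche and interferon lists had 0 genes called on any day.

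Of the genes with the highest ratios on day 3, the first 2 rested on a small number of cells. Rnase12, a ribonuclease A family gene, had 1.22 UMIs per 10000 on day 3 and 0.111 on day 0, but 80 of its 95 UMIs came from the 9 members with 1 Cdkn2a or Tmem119 UMI. In the 57 members with none it had 0.225 (0.126 to 0.371), against 0.117 (0.0535 to 0.222) in the 123 such members of day 0. The 9 cells also held 27 of the 50 UMIs of Mt2, a metallothionein, and 15 of the other 23 were in 1 cell. Mt1 had 7.69 UMIs per 10000 in the 9 cells and 1.55 in the 57, and Myl10 9.70 and 1.14. In the Cdkn2a and Tmem119 cells of day 3 that the rule kept out, Rnase12 had 5.24 and Myl10 18.2. These 4 genes were taken up with earlier results of these data known, and whether the 9 cells belong with the excluded ones was not tested. The other leading genes of day 3 were spread over more cells: Kpna2, a nuclear import receptor, had 64 UMIs in 20 cells against 19 in 11 (log2 ratio 1.81), Snhg9 73 in 27 against 22 in 13 (1.79), mt-Nd3, a mitochondrial gene, 486 in 51 against 161 in 62 (1.65), and Slc25a39, Rpn1 and Raver1 had ratios of 1.55 to 1.56. The mt-Nd3 level was higher on day 3 than on day 0 in other cells too, at 1.90 against 0.887 UMIs per 10000 in neutrophils and 6.18 against 2.54 in Ighd-positive B cells.

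The lowest ratios on day 3 were those of Cxcl2, a chemokine (log2 ratio -3.71), Maf (-3.68), Egr1 (-3.08), Rhob (-2.47), Elk3 (-2.45), Gadd45b (-2.34), Cox6a2 (-2.34) and Cd69 (-2.21). Of the 37 Cox6a2 UMIs of day 0, 25 were in 1 cell. Maf, a transcription factor, had 0.491 UMIs per 10000 in 26 of the 124 members of day 0, and 0.0384, 0.109, 0.0507 and 0.276 on days 3, 6, 9 and 12. Day 9 gave Maf (-3.28), Cox6a2 (-2.75), Ppp1r15a (-2.22), Klf10, Gm8369, Dusp6, Gadd45b and Cxcl2. On days 3, 6 and 9 Cxcl2 and Cd69 were lower than on day 0 in other cells too. Neutrophils had 4.53 UMIs per 10000 of Cxcl2 on day 0 and 0.675, 1.10, 0.781 and 3.74 on days 3, 6, 9 and 12, and T cells 1.56 of Cd69 on day 0 and 0.58, 0.62, 0.66 and 0.93. Maf had 0.150, 0.137, 0.426, 0.198 and 0.180 UMIs per 10000 in T cells on the 5 days, 0.102, 0, 0.0523, 0.0846 and 0 in Ighd-positive B cells from at most 11 UMIs, and 0.030 to 0.042 in neutrophils.

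On day 6 the highest ratios were mostly those of genes that monocytes express. Fn1 (log2 ratio 2.70), Ms4a6c (2.46), F13a1 (1.76), S100a4 (1.75), Itgb2 (1.72) and Ccl9 (1.69) were among the first 8, and the monocyte markers summed to 3.90 UMIs per 10000 in the members of that day, the highest of the 5 days. Fn1 had 44 UMIs in 24 cells and Ms4a6c 62 UMIs in 17 cells, 23 of them in 1 cell. The part of monocyte RNA in these values was not tested. Hist1h2ap, a histone gene of S phase, had 22.1 UMIs per 10000 on day 6 and 6.72 on day 0, and Neil3, a DNA glycosylase of dividing cells, 0.620 and 0.197. Hist1h2ap was higher on day 6 than on day 0 in other cells too. It had 1.525 against 0.292 in T cells, 3.85 against 1.04 in Ighd-positive B cells and 3.00 against 1.74 in neutrophils. Lowest on day 6 were Gm5483 (-2.55), Gm5611 (-2.40), Cox6a2 and Ldlrad4 (each -2.21), Maf (-2.17), Dusp5 (-2.05), Cd69 (-1.89) and Rhob (-1.84). Of the 88 Gm5483 UMIs of day 0, 77 were in 1 cell, and without the highest cell of each day its log2 ratio was 0.21.

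On day 9 the highest ratio was that of Igha, the alpha heavy chain constant region of plasma cells. It had 74 UMIs in 55 members on day 9 and 0 on day 0, which makes it at least 17.0-fold higher when day 0 is set to 3 counts. Neutrophils had 1.79 UMIs per 10000 of Igha on day 9 and 0.00261 on day 0, and T cells 0.679 and 0.00713, so cells that do not make it showed the same step and the members' level of 0.625 was no higher than theirs. Hbb-bs, a globin gene (2.5), was next, then Ctla2a (1.83), Mxd3 (1.73), Arhgap11a (1.73), Neil3 (1.71), Odf2 (1.62) and Nkg7 (1.55). Mxd3 and Arhgap11a, which are expressed by dividing cells, had 58 UMIs in 40 cells and 82 UMIs in 47 cells. Of the 62 Ctla2a UMIs, 33 were in 1 cell.

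On day 12 the first ratios rested on single cells. Ccl5, a chemokine of T and natural killer cells, had a log2 ratio of 3.73 with 82 of 90 UMIs in 1 cell, and 0.43 without the highest cell of each day. All 43 UMIs of Stfa1 were in 1 cell. Cd177 (2.15), Mmp9 (1.88), Mmp8 (1.83) and Retnlg (1.71) are genes that neutrophils express, and Retnlg had 9.94 UMIs per 10000 on day 0 and 32.6 on day 12 in the members while neutrophils had 92.7 and 154. Adpgk (1.63) and S100a6 (1.41) followed. As given above, the higher calls of day 12 were 8 in place of 21 without the members richest in S100a8 and S100a9. Lowest were Fam53b, at 1.70 UMIs per 10000 on day 0 and 0.448 on day 12, then Rhob, Eif4ebp1, Tsc22d3, Prep, Ypel3, Ngfrap1 and Dnajc7, with log2 ratios of -1.76 to -1.43 and 10 to 34 UMIs on day 12.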

How the data were processed

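Single-cell RNA was measured in the marrow of 1 mouse per day. Per the labels, the authors made 10x Genomics 3' v2 libraries and processed them with Cell Ranger against mm10 (the annotation release is not given in the sources used here), and they deposited raw UMI counts per gene for all barcodes, empty droplets included. The authors' own later filters were not applied. From these counts, barcodes with 500 or more UMIs and at most 10% mitochondrial UMIs were kept, and cell classes were set by UMI limits on named genes. The members, gene lists and tests were chosen with earlier results of these data known. A level is the UMIs of a gene summed over a class per 10000 summed UMIs, so deep cells weigh more. Day ratios used genes expected to reach 20 UMIs in both days, with summed counts under 3 set to 3, and split ratios genes expected to reach 5. The text names the 8 genes with the highest and the lowest ratio of each day, 10 each way for the Dntt split, and the extremes of each list. Doublets, taken as barcodes with a Scrublet score above a fixed 0.25 (scanpy 1.11.5), were kept and left out as an alternative. Other alternatives changed the limits, thinning, weighting and scaling (TMM in edgeR 4.0.16). Those on Cdkn2a and Tmem119 of 0, non-cycling members, neutrophil RNA and the highest single cell were chosen after seeing the data. Gene positions are from GENCODE vM21. Scripts were tested on simulated data with known folds.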

Additional observations from a re-analysis of the deposited data

How the results depend on the processing

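With every barcode thinned to 1000 UMIs and a limit of 2, the share of members was 1.644, 1.024 and 1.429% on days 0, 6 and 9, against 1.981, 1.49 and 1.959%. Every other limit tried left the share of each day within its counting interval. The number of genes 2-fold or more apart from day 0 on days 3, 6, 9 and 12 was 229, 171, 183 and 63. It was 465, 398, 384 and 125 with each cell given equal weight, 32, 35, 59 and 14 with cells thinned, 65, 45, 49 and 16 with 50 UMIs expected and 1046, 869, 859 and 554 with 5. With a sum of 10 or more UMIs it was 40 on day 12, and in non-cycling members, an alternative chosen after seeing the data, 75, 96 and 39 on days 3, 9 and 12. These settings compare other numbers of genes or cells. With equal weight the calls were 196 higher and 269 lower on day 3, 202 and 196 on day 6, 176 and 208 on day 9 and 54 and 71 on day 12. With thinning they were 18 and 14, 17 and 18, 30 and 29, and 9 and 5. TMM scaling moved the median log2 ratio of all genes on day 3 from -0.11 to -0.01. Without thinning, the cycling shares were 30.65, 65.15, 67.78, 69.85 and 56.67%, and with 3 or more G2/M UMIs that of day 9 was 36.03%. Genes higher in Dntt-positive cells numbered 419 with all UMIs, 20 with 2 or more Dntt UMIs and 657 in non-cycling members, against 33, and genes lower 209 and 508 in the first and last of these, against 38. The setting with non-cycling members also used all UMIs and only days 0 and 9, while 419 and 209 rest on 4 days. For single named genes, 506 alternative values lay within the counting interval or, in the Dntt split, the range over days of the main value and 48 lay outside it. A further 1 changed direction, that of Gm5483 on day 6, from a log2 ratio of -2.55 to 0.21 without the highest cell of each day, an alternative chosen after seeing the data. The settings with 50 and 5 UMIs expected change only which genes are compared, so the ratio of a gene cannot move under them. The 506 values include these, and genes that an alternative left uncompared are not counted. No paired analysis was possible because the days share no mouse, so no replicate of a day could be left out either. The Dntt split compares cells within a mouse and needs every day used, and no mouse was left out of it. For comparisons between days the spread between mice of a day is unknown. The 30 members of day 12 limit every value of that day.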
